A study of Homo sapiens with 18 samples.

Results

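The nuclear-encoded subunits of the respiratory chain and ATP synthase were followed through hypoxia in 3 human cell lines. They were chosen by gene symbol from the 23106 symbols of the count tables: the NDUFA, NDUFB, NDUFC, NDUFS and NDUFV genes of complex I, SDHA to SDHD of complex II, the UQCR genes of complex III, the COX5 to COX8 genes of complex IV and the ATP5 genes of complex V. NDUFA4 and NDUFA4L2 were left out. The rule gave 84 genes, 36 in complex I, 4 in complex II, 10 in complex III, 15 in complex IV and 19 in complex V. It used no measured value. It also takes in UQCRBP1, UQCRHL, ATP5EP2 and ATP5L2, copies of subunit genes. ATP5S and ATP5SL, which are not subunits of ATP synthase, and COX7A2L, a factor of supercomplex assembly, are members too. All of these are counted with the complex of their symbol below.

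Polyadenylated RNA was sequenced in 18 samples, 3 in normoxia and 3 in hypoxia for each line. The study set the response to low oxygen beside the binding of the hypoxia-inducible factors in lines of the same names. HKC-8 is an immortalized line of the kidney proximal tubule, HepG2 a line of hepatocellular cancer, and RCC4 a line of renal cell carcinoma that lost the VHL tumour suppressor, labelled here as carrying VHL. The study does not describe RCC4 cells with VHL, and it measured binding in RCC4 cells in normoxia. Its binding data and this RNA may therefore not come from the same RCC4 cells. The samples are called RCC4 cells below. The labels give the hypoxic HKC-8 and HepG2 samples as 16 h at 0.5% oxygen and the RCC4 samples as 24 h at 1% oxygen, while the titles of the HKC-8 samples say 0.1% and call their controls 21% oxygen. The study's text gives 0.5% oxygen for 16 h for the RNA-seq of every line, RCC4 cells included, so the exposure of RCC4 cells is uncertain. The study describes triplicates without saying whether they were separate cultures, so the p-values measure the spread between these samples, which may be technical.

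Complexes I to IV form the electron transport chain of the inner mitochondrial membrane. Complexes I and II pass electrons from NADH and succinate to coenzyme Q, complex III passes them to cytochrome c, complex IV to oxygen, and complex V makes ATP from the proton gradient. A few subunits are encoded by mitochondrial DNA, but all genes described here are in the nucleus. Hypoxia is known to lower oxygen use by mitochondria and to exchange some subunits for isoforms.

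Total counts per sample ran from 40915980 to 97984260, with the HKC-8 libraries, each split over 2 lanes, the deepest. The 84 genes took 0.784% to 1.19% of all counts. Genes used to check the labels, targets of the hypoxia-inducible factors, were induced in every line (8 of 8 tested in HKC-8, 7 of 7 in RCC4 and 8 of 8 in HepG2). All 8 hepatocyte markers exceeded 1 CPM (counts relative to the library size, scaled by the trimmed mean of M-values within each line) in normoxic HepG2 cells, against 0 in HKC-8 and 1 in RCC4 cells. Of 8 kidney tubule markers, 5 exceeded it in RCC4 cells, 4 in HepG2 cells and 3 in HKC-8 cells, and PAX8 led in HKC-8 cells with 169.5 CPM. AQP1, LRP2 and CUBN, markers of the proximal tubule as ANPEP is, had 0.0510, 0 and 0.0493 CPM there. ANPEP had 2.90 CPM, CDH16 3.31, GGT1 0.249 and PAX2 0.0151 in the same samples. CPM are shares of the reads, so a lower share of a transcript and fewer copies of it per cell cannot be told apart.

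Small decreases were called in members of all 5 complexes in RCC4 and HepG2 cells, and of all but complex IV in HKC-8 cells. A member was called repressed or induced where the edgeR quasi-likelihood test of hypoxia against normoxia gave a Benjamini-Hochberg adjusted p under 0.05 over all genes tested in that line. Of the 84 members 79 passed the filter on low counts in at least 1 line, and 77 in each line. In RCC4 cells 49 of the 77 were repressed and 3 induced, where 24.2% of all genes tested were repressed and 25.9% induced. In 1 fit of all 18 samples, where the lines share an estimate of the spread, 17 were repressed in RCC4 cells. The share of all genes was not counted for that fit. The RCC4 calls of SDHA, SDHC, NDUFA5, NDUFB8, NDUFS7, ATP5G2 and ATP5G3 given below were lost in it. HepG2 cells had 38 repressed and 3 induced members, against 19.2% and 19.9% of all genes. HKC-8 cells had 10 repressed and 0 induced, against 9.12% and 11.2%. DESeq2 likewise called 0 members induced in HKC-8 cells, and 1 was higher at an unadjusted p under 0.05 by edgeR.

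Same-numbered HKC-8 samples deviated together, and with the replicate number as a block 35 members were repressed and 2 induced in that line, against 21.6% and 21% of all genes. The members' log2 fold changes were known to unequal precision, with a median standard error of 0.103 in HKC-8 cells, 0.0793 in HepG2 cells and 0.0419 in RCC4 cells. Their median was -0.15 in HKC-8 cells, -0.15 in RCC4 cells and -0.21 in HepG2 cells, where that of all genes tested was 0.00 in each. Values lay below 0 for 68, 69 and 66 of the 77 members, in the same order, against 49.4%, 50.2% and 50.6% of all genes. They reached -0.4 or less for 3, 4 and 15 members, against 8.07%, 7.06% and 9.73%. Only COX6B2 in HepG2 cells, at 6 to 24 counts per sample, changed by at least 2-fold.

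**Figure D1:**
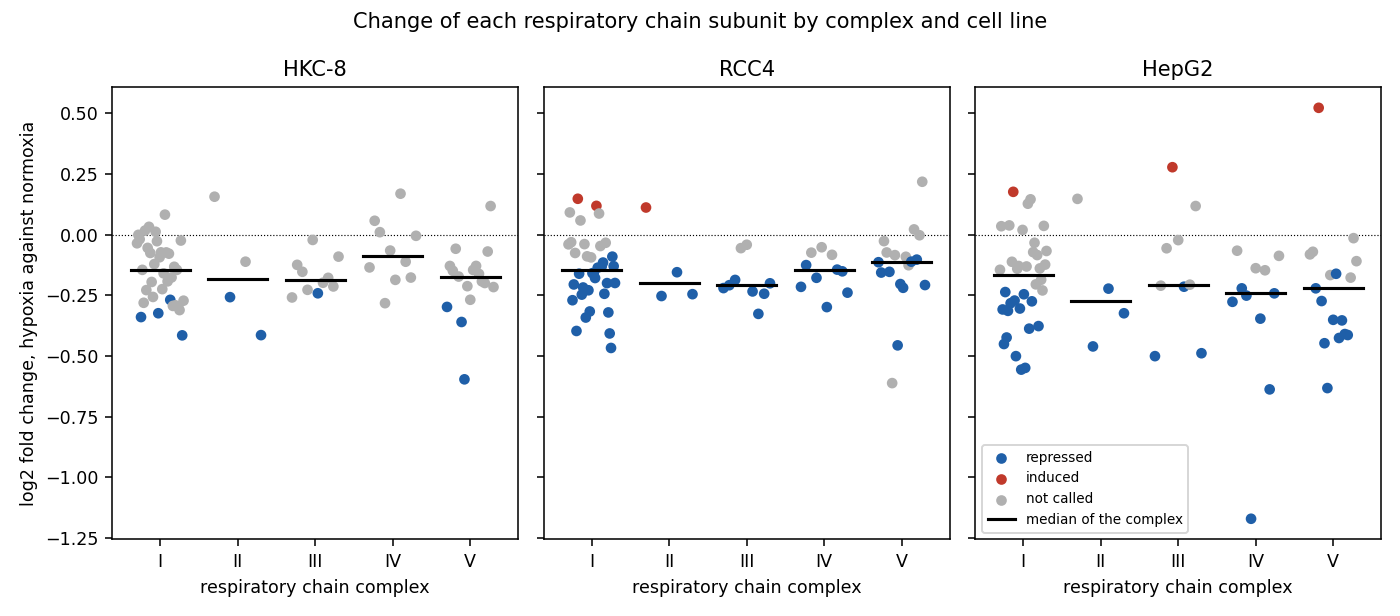
Log2 fold change of hypoxia against normoxia (y axis) of each member tested, by complex (x axis) and cell line (panel). Blue points are repressed, red ones induced and grey ones not called by edgeR, and bars are medians. Each complex has its median below 0 in each line, and the points lie between -0.64 and 0.52 apart from COX6B2 at -1.17 in HepG2 cells.

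Summed over all members, HKC-8 cells held 8940.3, 9425 and 8785 CPM in normoxia and 7759, 8823 and 7707 CPM in hypoxia. RCC4 cells held 11029, 11426 and 11640.4 CPM in normoxia and 10171, 10432 and 10268 CPM in hypoxia. HepG2 cells held 10004, 10714 and 9089 CPM in normoxia and 8963, 8504 and 8806 CPM in hypoxia. In RCC4 and HepG2 cells every hypoxic sum was below every normoxic one, while in HKC-8 cells the second hypoxic sample lay above the third normoxic one. The means differed by -10.5%, -9.45% and -11.9% in that order of the lines.

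**Figure D2:**
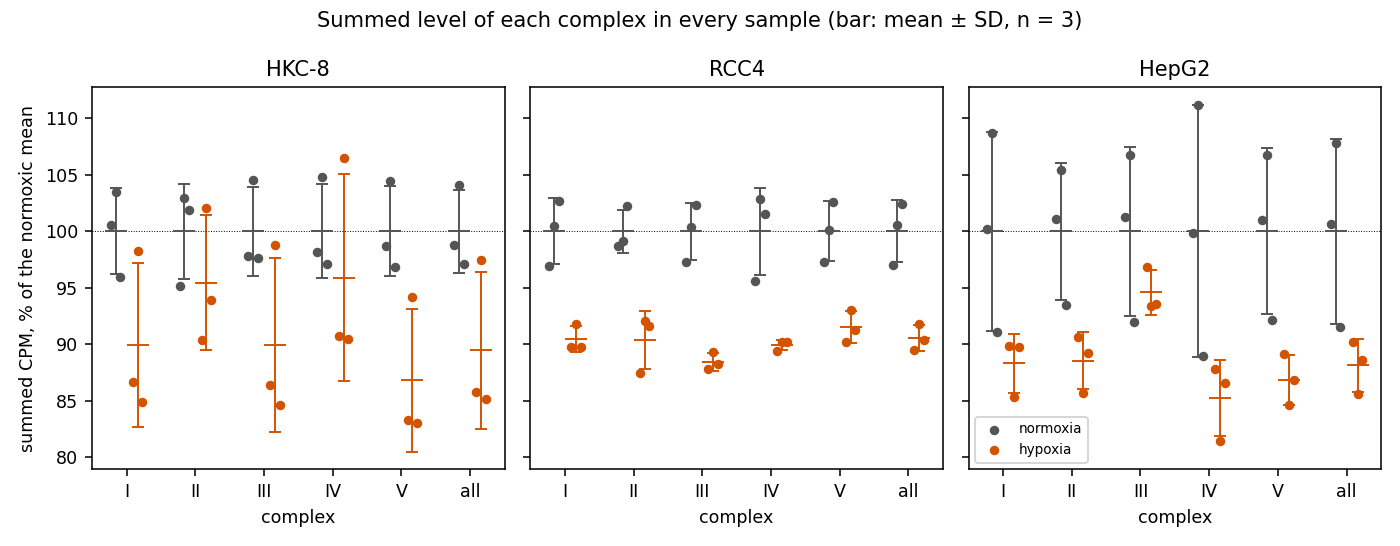
Summed CPM of each complex and of all members (x axis) as a percentage of the normoxic mean of the line (y axis, not from 0), with 1 point per sample, grey in normoxia and orange in hypoxia, and bars for the mean and SD of 3. The second hypoxic HKC-8 sample is the highest of the hypoxic ones in every complex, and the second normoxic HepG2 sample the highest of the normoxic ones.

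Single libraries weighed on the counts of calls. For the fits without 1 sample the share of all genes was not counted, so the shares given above are not theirs. Without the second hypoxic HKC-8 sample 25 members were repressed in that line and the median was -0.26, whereas 3 were repressed without any 1 of the first or second normoxic samples or of the first and the third hypoxic ones. In HepG2 cells 20 were repressed without the second hypoxic sample, 24 without the second normoxic one and 54 without the third normoxic one. In RCC4 cells such fits gave 44 to 53 repressed members. The counts by complex moved likewise. Without the second hypoxic HKC-8 sample 8 members of complex I, 4 of complex III, 3 of complex IV and 8 of complex V were repressed in that line, and the lowest counts of the other such fits were 1, 0, 0 and 1. In HepG2 cells complex I had 25 without the third normoxic sample and 6 without the second hypoxic one, complex III had 5 and complex IV 9 without the third normoxic sample, and complex IV had 3 without the second normoxic one.

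Gene by gene, all 3 hypoxic samples lay below all 3 normoxic ones for 27, 51 and 38 members in HKC-8, RCC4 and HepG2 cells, against 19.1%, 27.6% and 25.2% of all genes. They lay above for 1, 6 and 5 members, against 20%, 28.8% and 24.8%. Among the 76 members tested in all lines, 57 had a log2 fold change below 0 in each, as 25.9% of all genes did, and 2, SDHA and NDUFB8, had one above 0 in each. The members' log2 fold changes had a Pearson correlation of 0.49 between HKC-8 and RCC4 cells, 0.43 between HKC-8 and HepG2 cells and 0.38 between RCC4 and HepG2 cells, across genes that share the libraries of each line.

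**Figure D3:**
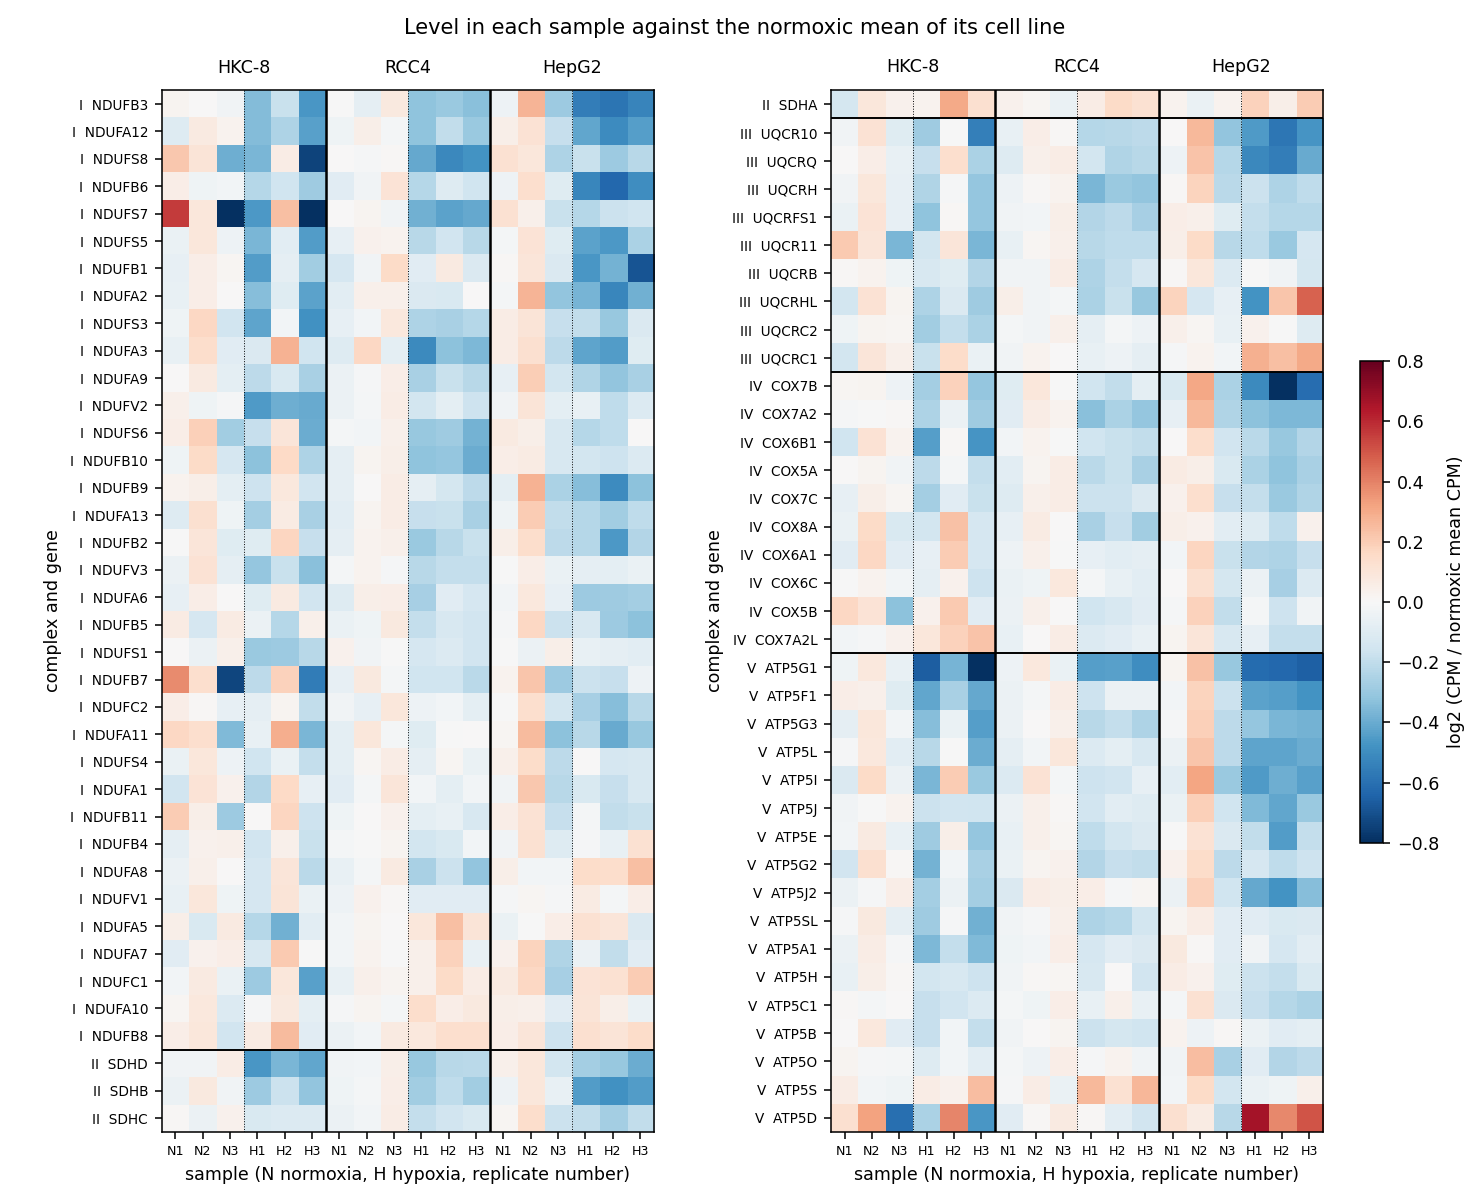
Heat map of 75 of the 76 members tested in all lines (vertical axis, by complex) over the 18 samples (horizontal axis, N for normoxia and H for hypoxia with the replicate number). Colour is the log2 ratio of a sample's CPM to the normoxic mean of its line, limited to 0.8 either way, with blue below and red above. Blue fills most hypoxic samples of RCC4 and HepG2 cells, and in HKC-8 cells samples H1 and H3 are bluer than H2.

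The members repressed in all 3 lines were ATP5G1, SDHB, SDHD, NDUFA12 and NDUFB3, that is 5 of 76, against 3.43% of all genes (17 with the replicate block in HKC-8 cells, against 6.51%). NDUFA12 and NDUFB3 are accessory subunits of complex I, SDHB and SDHD belong to complex II, and ATP5G1 encodes the c subunit of ATP synthase. Their promoters are printed with that of SDHA, which had values above 0 in each line, so that the sequences upstream of subunits with unlike values can be read side by side. Each is the 250 bases before the start of the gene in RefSeq on GRCh38.p14, 5′ to 3′ on its own strand. Capitals mark the letters of 4 motifs found on either strand, which are ACGTG or GCGTG (the core of the hypoxia response element), TGCGCA (the core of the NRF1 site), CCGGAAG (ETS factors) and AAGATGG (YY1), and adjoining capitals can be overlapping matches.
ATP5G1 (chr17:48892537-48892786, plus strand): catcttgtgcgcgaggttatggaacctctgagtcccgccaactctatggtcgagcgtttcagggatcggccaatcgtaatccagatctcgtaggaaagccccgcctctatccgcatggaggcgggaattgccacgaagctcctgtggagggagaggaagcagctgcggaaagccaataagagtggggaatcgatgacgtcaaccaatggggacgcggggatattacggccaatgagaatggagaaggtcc
SDHA (chr5:218070-218319, plus strand): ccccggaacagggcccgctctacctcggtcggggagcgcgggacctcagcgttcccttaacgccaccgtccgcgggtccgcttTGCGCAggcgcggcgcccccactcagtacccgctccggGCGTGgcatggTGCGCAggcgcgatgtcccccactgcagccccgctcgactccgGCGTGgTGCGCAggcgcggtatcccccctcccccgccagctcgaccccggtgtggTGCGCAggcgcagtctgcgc
SDHB (chr1:17054033-17054282, minus strand): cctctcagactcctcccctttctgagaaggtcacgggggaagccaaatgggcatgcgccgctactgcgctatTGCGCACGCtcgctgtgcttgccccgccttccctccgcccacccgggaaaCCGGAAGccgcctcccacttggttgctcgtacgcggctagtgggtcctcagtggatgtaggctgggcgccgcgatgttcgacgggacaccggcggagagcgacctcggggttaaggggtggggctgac
SDHD (chr11:112086623-112086872, plus strand): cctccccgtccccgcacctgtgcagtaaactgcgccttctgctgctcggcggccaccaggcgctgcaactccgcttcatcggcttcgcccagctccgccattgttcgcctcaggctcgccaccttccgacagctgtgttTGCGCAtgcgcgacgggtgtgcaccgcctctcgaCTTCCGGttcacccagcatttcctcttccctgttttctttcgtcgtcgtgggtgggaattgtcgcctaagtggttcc
NDUFA12 (chr12:95003698-95003947, minus strand): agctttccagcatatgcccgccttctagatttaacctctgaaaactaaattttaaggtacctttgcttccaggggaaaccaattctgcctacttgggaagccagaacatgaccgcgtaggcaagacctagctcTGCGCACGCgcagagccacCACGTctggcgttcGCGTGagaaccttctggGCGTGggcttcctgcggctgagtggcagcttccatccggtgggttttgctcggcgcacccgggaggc
NDUFB3 (chr2:201071751-201072000, plus strand): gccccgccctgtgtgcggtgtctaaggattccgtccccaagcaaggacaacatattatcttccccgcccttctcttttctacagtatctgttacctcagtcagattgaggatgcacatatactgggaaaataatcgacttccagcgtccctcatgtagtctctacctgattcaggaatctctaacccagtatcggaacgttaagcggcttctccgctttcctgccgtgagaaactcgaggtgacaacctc

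The SDHA promoter held 4 NRF1 cores and 2 hypoxia response element cores, and that of NDUFA12 4 hypoxia response element cores and 1 NRF1 core. Those of SDHB and SDHD each held 1 NRF1 core and 1 ETS match, and SDHB also 1 hypoxia response element core. The printed 250 bases of ATP5G1 and NDUFB3 held 0 matches. With the 50 bases after the start included, ATP5G1 held 2 hypoxia response element cores and NDUFB3 still 0 matches. In that longer window SDHA held 5 NRF1 cores, and SDHB and NDUFA12 each 1 YY1 match. A promoter was listed for 66 members among 27305 in all, counted here from 250 bases before to 50 after the start. The NRF1 core was found in 30.3% of them, 8.42% of all promoters and 10.8% of those of protein-coding genes. The ETS motif was in 27.3%, 10.7% and 14.2%, the YY1 motif in 24.2%, 6.06% and 6.40%, and the hypoxia response element core in 59.1%, 48.4% and 55.9%. Members with the hypoxia response element core had a median log2 fold change of -0.13 in HKC-8 cells, -0.16 in RCC4 cells and -0.21 in HepG2 cells. Those without it had -0.18, -0.15 and -0.21. In the same order the medians were -0.09, -0.16 and -0.21 with the NRF1 core and -0.19, -0.14 and -0.21 without it. With the ETS motif they were -0.15, -0.18 and -0.22, and without it -0.18, -0.15 and -0.19. With the YY1 motif they were -0.17, -0.12 and -0.28, and without it -0.15, -0.17 and -0.21. No such difference was tested. A match is a string of letters in a window and says nothing of binding.

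In complex I, the NADH dehydrogenase, 4 of 36 members were repressed in HKC-8 cells (14 with the replicate block), 23 in RCC4 cells and 15 in HepG2 cells, while 0, 2 and 1 were induced. Of all genes 9.12% (21.6% with the block), 24.2% and 19.2% were repressed, and 11.2% (21% with the block), 25.9% and 19.9% induced. These are the shares for each such count below too. The summed complex I level differed by -10.1%, -9.55% and -11.7%. NDUFA12, an accessory subunit (GRCh37 chr12:95289073-95397524, minus strand; the gene positions that follow are on the same build), had 47.7, 53.9 and 52.2 CPM in normoxic and 40.4, 43.2 and 37.9 CPM in hypoxic HKC-8 cells. It went from 55.3, 58.6 and 56.1 to 45.4, 49.4 and 46.2 CPM in RCC4 cells and from 56.7, 59.3 and 48.2 to 41.1, 38.7 and 40.4 CPM in HepG2 cells. No hypoxic sample reached a normoxic one in any line. The log2 fold changes of NDUFA12 with their SE were -0.34 ± 0.09, -0.27 ± 0.05 and -0.45 ± 0.08, with adjusted p-values of 0.026, 5.3e-05 and 0.00057.

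NDUFB3, an accessory subunit of the membrane arm (chr2:201936156-201950473, plus strand), had 50.7, 49.9 and 49.0 CPM in normoxic and 39.3, 44.04 and 36.2 CPM in hypoxic HKC-8 cells. In HepG2 cells it went from 75.5, 93.7 and 63.4 to 52.8, 51.7 and 53.7 CPM. Its hypoxic samples were below its normoxic ones in these lines and in RCC4 cells. The log2 fold changes of NDUFB3 were -0.32 ± 0.09, -0.32 ± 0.05 and -0.56 ± 0.11 in HKC-8, RCC4 and HepG2 cells (adjusted p = 0.035, 4.9e-06 and 0.0012). In HKC-8 cells the calls of NDUFA12 and NDUFB3, as those of SDHB and ATP5F1 below, were lost in 4 of the 6 fits that each left out 1 sample.

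The largest decreases in complex I were not those of the same genes in each line. In RCC4 cells NDUFS8, a core iron-sulphur subunit, had 98.4, 97.6 and 98.9 CPM in normoxia and 74.0, 68.8 and 70.5 CPM in hypoxia, well apart, a log2 fold change of -0.47 ± 0.04 (adjusted p = 1.7e-09). NDUFS7, which carries the iron-sulphur cluster next to coenzyme Q, and the accessory subunits NDUFA3 and NDUFB10 followed there with -0.41, -0.40 and -0.34. In HepG2 cells NDUFB3 was followed by NDUFB6 (-0.55 ± 0.07, adjusted p = 7.5e-05), also of the membrane arm. In HKC-8 cells NDUFV2, a core subunit of the module that oxidizes NADH, went from 122, 116 and 118 to 86.6, 90.5 and 89.8 CPM, again with no overlap. Its change there was -0.42 ± 0.07 (adjusted p = 0.0044), beside -0.13 ± 0.04 in RCC4 cells (0.0073) and -0.12 ± 0.07 in HepG2 cells (0.15).

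Of the 12 accessory NDUFA subunits 1, 6 and 7 were repressed in HKC-8, RCC4 and HepG2 cells, and of the 11 NDUFB subunits 1, 7 and 6. The HKC-8 counts were near the 9.12% of all genes repressed in that line, against 24.2% and 19.2% in the others. With the replicate block 4 and 3 were repressed in HKC-8 cells, against 21.6% of all genes. This split of the complex was made after the values were seen, and differences between the lines within it were not tested.

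Few complex I members were induced. NDUFA5, an accessory subunit, rose in RCC4 cells from 73.7, 75.8 and 74.8 to 79.5, 88.5 and 80.4 CPM (0.15 ± 0.04, adjusted p = 0.0083), and NDUFB8, of the membrane arm, from 54.0, 55.1 and 58.7 to 59.2, 61.4 and 61.4 CPM (0.12 ± 0.05, adjusted p = 0.034). No hypoxic sample of either was as low as a normoxic one, yet 1 and 4 of the 6 fits that left out 1 sample lost the call. In HKC-8 cells NDUFA5 had -0.23 ± 0.10 (adjusted p = 0.12) and was repressed with the replicate block (0.0077). NDUFA8, an accessory subunit on the intermembrane side (chr9:124906337-124922058, minus strand), was the 1 member of 76 called in opposite directions in 2 lines, against 5.97% of all genes. It went from 33.9, 34.9 and 37.1 to 29.5, 31.3 and 28.3 CPM in RCC4 cells (-0.25 ± 0.06, adjusted p = 0.00079) and from 53.6, 51.2 and 51.2 to 57.6, 57.3 and 61.4 CPM in HepG2 cells (0.18 ± 0.06, adjusted p = 0.036). The groups were apart in both lines, but each of the 6 HepG2 fits that left out 1 sample lost the call.

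Complex II, succinate dehydrogenase, has 4 subunits, all encoded in the nucleus, and SDHA differed in sign from the other three. SDHA, the flavoprotein that oxidizes succinate (chr5:218418-257197, plus strand), had 255, 299.8 and 288 CPM in normoxic and 286, 346 and 307 CPM in hypoxic HKC-8 cells. It went from 149, 147 and 140.1 to 151, 162 and 158 CPM in RCC4 cells and from 140.3, 132 and 140.0 to 157, 142 and 158 CPM in HepG2 cells. The groups overlapped in HKC-8 cells and not in the others. SDHA was induced in RCC4 cells (0.11 ± 0.04, adjusted p = 0.017), a call that 3 of the 6 fits without 1 sample lost. It had 0.16 ± 0.10 in HKC-8 cells (0.29, or 0.044 with the replicate block) and 0.15 ± 0.06 in HepG2 cells (0.075). With the block SDHA was called induced in HepG2 cells too.

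SDHB, the iron-sulphur subunit (chr1:17345159-17380527, minus strand), had 126, 138 and 128 CPM in normoxic and 107, 116 and 105 CPM in hypoxic HKC-8 samples. RCC4 samples went from 92.2, 93.4 and 98.1 to 78.0, 82.0 and 77.9 CPM, and HepG2 samples from 84.0, 92.0 and 82.9 to 63.2, 61.6 and 63.2 CPM. No hypoxic sample reached a normoxic one. The log2 fold changes of SDHB were -0.26 ± 0.08, -0.25 ± 0.04 and -0.46 ± 0.06 in HKC-8, RCC4 and HepG2 cells (adjusted p = 0.043, 2.0e-05 and 6.4e-05).

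SDHC and SDHD anchor the enzyme in the membrane and bind coenzyme Q. SDHD (chr11:111957548-111990739, plus strand) had 124, 124 and 132 CPM in normoxic and 91.8, 98.5 and 95.3 CPM in hypoxic HKC-8 samples, 301, 302 and 316 against 248, 263 and 264 CPM in RCC4 samples, and 133, 138 and 117 against 107, 105 and 97.8 CPM in HepG2 samples. The groups were apart in every line. The log2 fold changes of SDHD were -0.41 ± 0.07, -0.25 ± 0.04 and -0.32 ± 0.07 (adjusted p = 0.0053, 3.9e-06 and 0.0025). SDHC (chr1:161284171-161332996, plus strand) was repressed in RCC4 cells (-0.16 ± 0.04, adjusted p = 0.0013) and HepG2 cells (-0.22 ± 0.07, 0.030), where 5 of the 6 fits without 1 sample lost the call. In HKC-8 cells it had 123, 118 and 125.2 CPM in normoxia and 112, 113 and 113 CPM in hypoxia (-0.11 ± 0.07, 0.27). In the gene models used here SDHA and SDHD share 1870 and 319 exon bases with another gene of the same strand. On either strand 20 members share exon bases with another gene, among them NDUFB8 with 488 and COX6B2 with 469. Counting could have split or dropped reads there, but it used UCSC genes, and this was not tested.

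**Figure D4:**
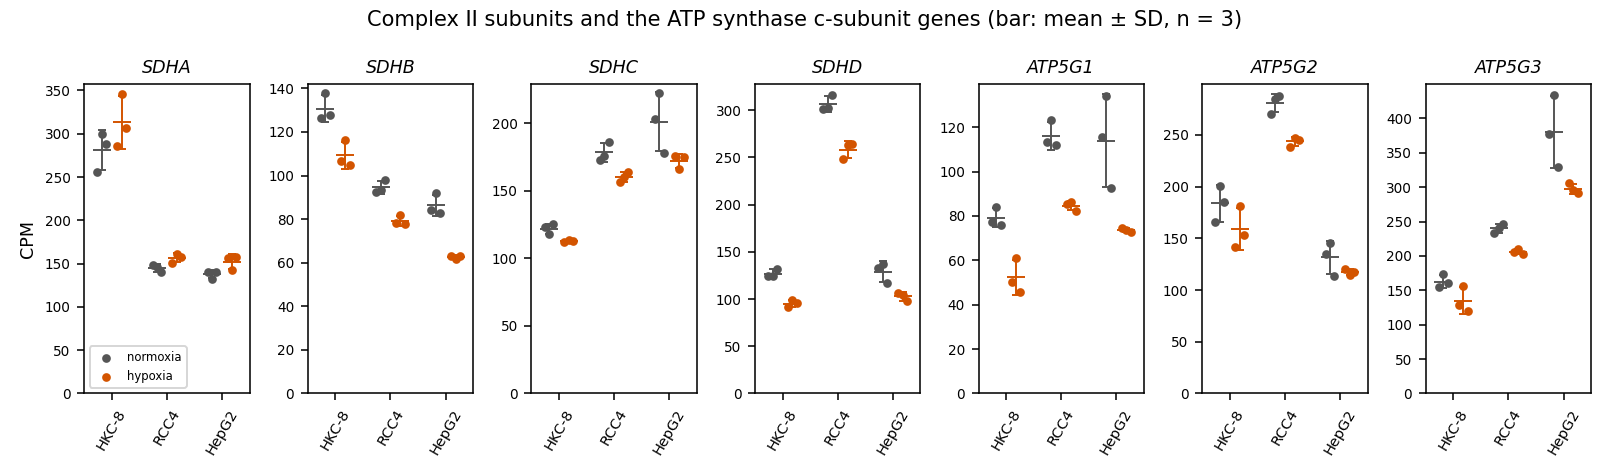
CPM (y axis, from 0) of the 4 complex II genes and the 3 c-subunit genes of ATP synthase in each line (x axis), with 1 point per sample, grey in normoxia and orange in hypoxia, and bars for the mean and SD of 3. All orange points lie below all grey ones for SDHB, SDHD and ATP5G1 in each line, while for SDHA the orange mean is above the grey one.

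In complex III, the cytochrome bc1 complex, 1 of 10 members tested was repressed in HKC-8 cells (5 with the replicate block), 7 of 9 in RCC4 cells and 3 of 9 in HepG2 cells, with 0, 0 and 1 induced. The 1 call in HKC-8 cells was UQCRC2, a core subunit, at -0.24, named here after its value was seen. UQCRH, the hinge protein at the docking site of cytochrome c, had 248, 257 and 259.9 CPM in normoxic and 198, 207 and 205 CPM in hypoxic RCC4 cells, which did not overlap (-0.33 ± 0.03, adjusted p = 4.0e-08). UQCR10, a small accessory subunit, went from 117, 139.7 and 94.1 to 85.3, 78.2 and 84.5 CPM in HepG2 cells, the largest decrease of the complex there (-0.50 ± 0.11, adjusted p = 0.0025). In HKC-8 cells it had -0.26 ± 0.13 (0.19, or 0.010 with the replicate block).

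UQCRC1, the other core subunit of complex III (chr3:48636435-48648409, minus strand), went the other way in HepG2 cells. It had 216, 222 and 214 CPM in normoxia and 265, 257 and 268 CPM in hypoxia there, with no overlap (0.28 ± 0.06, adjusted p = 0.0015). In RCC4 cells it had 210.0, 218 and 215 CPM in normoxia and 206, 209 and 204 CPM in hypoxia (-0.06 ± 0.03, 0.17), all hypoxic values being lower, and in HKC-8 cells -0.02 ± 0.10 (0.90). The summed complex III level differed by -10.1% in HKC-8 cells, -11.6% in RCC4 cells and -5.43% in HepG2 cells.

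In complex IV, cytochrome c oxidase, 0 of 10 members tested were repressed in HKC-8 cells by edgeR and 0 by DESeq2 (1 was lower at an unadjusted p under 0.05, and 3 were repressed with the replicate block), 7 of 10 in RCC4 cells and 7 of 11 in HepG2 cells. The summed level differed by -4.11%, -10.1% and -14.8%. COX7B, a small subunit needed for assembly (chrX:77154937-77162873, plus strand), went from 94.0, 126 and 85.7 to 71.8, 58.0 and 66.9 CPM in HepG2 cells. All hypoxic samples were lower. The change of COX7B was -0.64 ± 0.12 there (adjusted p = 0.0010), beside -0.14 ± 0.04 in RCC4 cells (0.0097) and -0.11 ± 0.13 in HKC-8 cells (0.57). COX6B1, which faces the intermembrane space, had the largest value of the complex in HKC-8 cells, -0.28 ± 0.14 (0.17, or 0.011 with the replicate block).

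Among the COX7A genes, COX7A2, the isoform of most tissues, was repressed in RCC4 cells (-0.30 ± 0.04, adjusted p = 4.3e-06) and HepG2 cells (-0.35 ± 0.10, 0.013), and had -0.19 ± 0.08 in HKC-8 cells (0.14, or 0.035 with the block). COX7A2L, which joins complexes III and IV into supercomplexes, had 88.9, 89.5 and 92.4 CPM in normoxic and 96.1, 102 and 106 CPM in hypoxic HKC-8 cells. Every hypoxic sample was higher there (0.17 ± 0.07, 0.13, or 0.031 with the block), while the values were -0.08 ± 0.04 in RCC4 cells (0.071) and -0.15 ± 0.07 in HepG2 cells (0.11).

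The isoforms known from muscle or testis were at or near 0. COX6A2 and COX7B2 had 0 counts in all 18 samples, COX7A1 at most 4 counts in any sample and COX8C at most 2. COX6B2, the testis isoform of COX6B, had 0 counts in every RCC4 sample and 3 to 9 per HKC-8 sample, and passed the filter in HepG2 cells alone. There it had 0.529, 0.443 and 0.232 CPM in normoxia and 0.210, 0.170 and 0.152 CPM in hypoxia, from 6 to 24 counts per sample, with the lowest normoxic sample close to the highest hypoxic one. The change of -1.17 ± 0.44 had an adjusted p of 0.049, which DESeq2 (0.11) and 5 of the 6 fits without 1 sample did not bear out.

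In complex V, ATP synthase, 3 of 17 members tested were repressed in HKC-8 cells (11 with the replicate block), 9 of 18 in RCC4 cells and 10 of 17 in HepG2 cells, with 1 induced in HepG2 cells. The summed level differed by -13.2%, -8.52% and -13.2%. The c subunit forms the rotor ring driven by protons, and ATP5G1, ATP5G2 and ATP5G3 encode the same mature peptide. ATP5G1 (chr17:46970127-46973233, plus strand) had 77.5, 83.9 and 76.1 CPM in normoxic and 50.2, 61.2 and 45.7 CPM in hypoxic HKC-8 samples. It went from 113, 123 and 112 to 85.5, 86.1 and 82.4 CPM in RCC4 cells and from 115, 134 and 92.5 to 74.4, 73.6 and 72.5 CPM in HepG2 cells. The groups were apart in each line. The log2 fold changes of ATP5G1 were -0.60 ± 0.11, -0.46 ± 0.04 and -0.63 ± 0.10 in HKC-8, RCC4 and HepG2 cells (adjusted p = 0.0074, 5.1e-09 and 0.00030), that is -33.9%, -27.1% and -35.5%.

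The other c-subunit genes had values closer to 0. ATP5G2 had -0.21 ± 0.11 in HKC-8 cells (adjusted p = 0.20, or 0.010 with the block), -0.20 ± 0.03 in RCC4 cells (3.3e-05) and -0.17 ± 0.08 in HepG2 cells (0.11). ATP5G3 had -0.27 ± 0.11 (0.11, or 0.0057 with the block), -0.22 ± 0.03 (1.3e-05) and -0.35 ± 0.08 (0.0051) in the same order. The difference between ATP5G1 and the other two genes was not tested.

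ATP5F1, the b subunit of the peripheral stalk, went from 296, 293 and 267 to 214, 238 and 215 CPM in HKC-8 cells, without overlap (-0.36 ± 0.08, adjusted p = 0.016). It was repressed in HepG2 cells (-0.45 ± 0.08, 0.00059) and had -0.08 ± 0.04 in RCC4 cells (0.062). Of the 7 members of the stalks and the membrane part other than the c subunit, 6 were repressed in HepG2 cells, 2 in RCC4 cells and 1 in HKC-8 cells, with median log2 fold changes of -0.41, -0.09 and -0.16. Of the 5 subunits of the catalytic F1 head 2, 3 and 1 were repressed. The replicate block gave 4 and 3 repressed members of these groups in HKC-8 cells, against 21.6% of all genes. This grouping too was made after the values were seen, and its differences between lines were not tested.

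ATP5D, the delta subunit of the F1 head (chr19:1241745-1244824, plus strand), had 34.4, 33.0 and 27.0 CPM in normoxic and 49.9, 41.1 and 44.6 CPM in hypoxic HepG2 cells. All hypoxic samples were higher, and its 0.52 ± 0.10 (adjusted p = 0.00085) was the largest increase of any member called in these 3 lines. ATP5D had -0.07 ± 0.05 in RCC4 cells (0.23) and -0.06 ± 0.27 in HKC-8 cells (0.90), where its samples ran from 9.19 to 18.3 CPM. Of the copies, ATP5EP2 passed the filter in RCC4 cells alone, at 0.186 to 0.628 CPM (-0.61 ± 0.48, adjusted p = 0.31), and ATP5L2 had at most 1 count in any sample.

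The wide spread of ATP5D in HKC-8 cells was shared by other members. NDUFS7 had 17.1, 12.3 and 5.33 CPM in normoxic and 8.44, 13.7 and 6.10 CPM in hypoxic HKC-8 cells, against 44.4, 45.0 and 43.4 CPM in normoxic RCC4 cells. The 5 members with the widest spread between HKC-8 samples of a group, named after their values were seen, were NDUFS7, NDUFB7, ATP5D, NDUFS8 and NDUFA11, whose transcripts had 62.3% to 69.5% GC where the median member had 47.1%. Across 76 members the SD of log2 CPM within groups had a Pearson correlation with GC content of 0.70 in HKC-8 cells and -0.03 in RCC4 cells, and across 75 of 0.13 in HepG2 cells. These points share the libraries of a line, and the part of GC content in the HKC-8 values was not tested.

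Whether the response differed between HKC-8 and HepG2 cells, the lines whose labels share an oxygen level and a time, was tested as an interaction. Of 78 members 0 had a higher and 0 a lower response in HKC-8 cells by edgeR, against 4.28% and 5.02% of all genes, while 11 (14.1%) had an unadjusted p under 0.05, against 23.8% of all genes. DESeq2 called 2 higher (COX7A2L and NDUFB6) and 1 lower (NDUFV2). With the replicate block 2 were higher in HKC-8 cells, against 9.06% of all genes, COX7A2L (difference of log2 fold changes 0.31 ± 0.08, adjusted p = 0.018) and NDUFB6 (0.32 ± 0.10, adjusted p = 0.043). The block gave 3 lower ones, against 11%, ATP5D (-0.59 ± 0.14, adjusted p = 0.010), UQCRC1 (-0.31 ± 0.08, adjusted p = 0.014) and NDUFV2 (-0.30 ± 0.09, adjusted p = 0.031). Without the second hypoxic HKC-8 sample 4 were lower. RCC4 cells, given another exposure by the labels, were not part of this test.

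In normoxia the subunits were on balance higher in RCC4 and HepG2 cells than in HKC-8 cells. In 1 fit of the 9 normoxic samples, 54 of 78 members were higher and 15 lower in RCC4 than in HKC-8 cells, with a median log2 difference of 0.52, where 39.4% and 41.4% of all genes were called and their median was -0.01. Between HepG2 and HKC-8 cells 48 were higher and 16 lower, with a median of 0.50, against 42.6% and 40.5% and a median of 0.02. HepG2 cells had 23 higher and 35 lower than RCC4 cells, with a median of -0.09, against 45.3% and 38.1% and a median of 0.11. Cell line and any batch of libraries cannot be told apart here.

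Among the largest normoxic differences, NDUFA3 (2.41 ± 0.12), ATP5D (2.34 ± 0.18) and NDUFS7 (2.01 ± 0.28) were higher in RCC4 than in HKC-8 cells on the log2 scale. ATP5D and NDUFS7 were among the GC-rich members with the widest spread in HKC-8 cells. Their normoxic HKC-8 samples ran from 9.04 to 17.1 and from 5.24 to 16.8 CPM in that fit. NDUFC2 (1.94 ± 0.08) and ATP5I (1.81 ± 0.13) were higher in HepG2 than in HKC-8 cells, beside the scarce COX6B2. COX8A (-1.35 ± 0.08) and NDUFB2 (-1.30 ± 0.09) were lower in HepG2 than in RCC4 cells, and UQCRB (1.38 ± 0.07) and ATP5S (1.32 ± 0.12) higher. On the scale of that fit SDHD had 124.5 ± 4.67 CPM (SD, n = 3) in HKC-8 cells, 315 ± 6.33 in RCC4 cells and 135 ± 10.9 in HepG2 cells, and SDHA 276 ± 22.2, 149.7 ± 5.77 and 144 ± 5.60. SDHD was thus highest in RCC4 cells and SDHA in HKC-8 cells, and the other two lines did not differ in either gene at an adjusted p under 0.05.

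UQCRB, which binds coenzyme Q in complex III, had 219.5 ± 4.30 CPM in HKC-8 cells, 40.95 ± 1.12 in RCC4 cells and 106 ± 6.999 in HepG2 cells, so that RCC4 cells were lower than HKC-8 cells by a log2 difference of -2.42 ± 0.07 while most members were higher. Its copy UQCRBP1 had 0.320 to 0.680 CPM in the normoxic HKC-8 samples and at most 1 count in any RCC4 or HepG2 sample. UQCRHL, a copy of UQCRH, had 5.38 ± 0.470 CPM in HKC-8 cells, 19.3 ± 0.634 in RCC4 cells and 0.306 ± 0.0372 in HepG2 cells, a log2 difference of -5.97 ± 0.17 between HepG2 and RCC4 cells. UQCRH itself had 146 ± 7.93, 263 ± 5.15 and 153 ± 19.8 CPM. Reads that mapped to more than 1 place had been removed, so the levels of UQCRB, UQCRH and their copies are uncertain, as are those of SDHA, which has pseudogene copies of its own.

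Per kilobase of transcript, ATP5B, the catalytic beta subunit of the F1 head, was the highest member of complex V in each line. The lowest of those over 1 CPM was ATP5S, which is not a subunit of ATP synthase. Both held with either of 2 definitions of transcript length. With that of the canonical transcript ATP5B had 724 ± 42.5 CPM per kb (SD, n = 3) in HKC-8 cells, 731 ± 8.87 in RCC4 cells and 531 ± 16.5 in HepG2 cells, beside a complex V median of 122, 179 and 185. Its levels in HKC-8 and RCC4 cells did not differ beyond their spread. Under both definitions NDUFS5 was the highest complex I member in HKC-8 and RCC4 cells, NDUFV3 the lowest in RCC4 and HepG2 cells, UQCRH the highest of complex III in RCC4 cells, COX6A1 the highest of complex IV in HKC-8 and HepG2 cells and COX8A in RCC4 cells.

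Genes that serve the respiratory chain but lie outside the name rule moved in part with it. NDUFA4, a subunit of complex IV, was repressed in RCC4 cells (-0.17) and HepG2 cells (-0.50), and its hypoxic counterpart NDUFA4L2 was induced in HKC-8 cells (3.16 ± 0.73, adjusted p = 0.017) and HepG2 cells (4.41 ± 0.25, 1.3e-08). NDUFA4L2 stayed scarce, at 0.298 ± 0.104 CPM (SD, n = 3) in hypoxic HKC-8 and 5.78 ± 0.375 CPM in hypoxic HepG2 cells, and did not pass the filter in RCC4 cells. COX4I1, a complex IV subunit, had log2 fold changes of 0.02, -0.02 and -0.01 in HKC-8, RCC4 and HepG2 cells, and its isoform COX4I2 had 0 counts in HKC-8 and RCC4 cells. Cytochrome c (CYCS) was repressed in RCC4 cells (-0.32) and HepG2 cells (-0.38), and cytochrome c1 (CYC1) in RCC4 cells (-0.18).

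Of 13 assembly factors of complex I 4, 8 and 8 were repressed in HKC-8, RCC4 and HepG2 cells and 0, 0 and 1 induced. TMEM126B, which helps build the membrane arm, had -0.85 in HepG2 and -0.69 in HKC-8 cells, and NUBPL, which delivers iron-sulphur clusters, rose by 0.28 in HepG2 cells. Of 5 factors of complex III 2, 3 and 4 were repressed, among them the chaperone BCS1L at -0.70 in HepG2 and -0.60 in HKC-8 cells. Of 20 factors of complex IV 5, 10 and 9 were repressed, such as COX14 at -0.74 and COA6 at -0.63 in HepG2 cells, and 1, 3 and 1 induced, such as COX20 by 0.41 in RCC4 and 0.35 in HKC-8 cells. Of 4 factors of complex II 0, 1 and 2 were repressed by edgeR, and of 4 assembly factors and inhibitors of complex V 0, 1 and 1, with 0 and 0 lower in HKC-8 cells at an unadjusted p under 0.05. With the replicate block the HKC-8 counts of repressed factors were 8, 1, 3, 7 and 1 for complexes I to V.

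Of 13 enzymes of the TCA cycle 4, 9 and 6 were repressed, such as SUCLG1 at -0.56 in HepG2 and IDH3A at -0.43 in HKC-8 cells, and 0, 1 and 0 induced. Of 13 genes of coenzyme Q synthesis 1, 6 and 2 were repressed and 0, 2 and 0 induced, ADCK3 by 0.58 in RCC4 cells. The repressed shares were 7.69%, 46.2% and 15.4%, against 9.12%, 24.2% and 19.2% of all genes. Their median log2 fold changes were 0.05, -0.15 and 0.02, so the list was lower in RCC4 cells alone. Of the 15 genes tested in RCC4 and HepG2 cells for the expression of mitochondrial DNA and its regulators 6 and 7 were repressed and 4 and 0 induced, and of 14 in HKC-8 cells 2 were repressed. Proteins of the mitochondrial ribosome were repressed in 30 of 78, 48 of 77 and 49 of 79 cases, with median log2 fold changes of -0.30, -0.15 and -0.27. Cytosolic ribosomal proteins were repressed in 2, 6 and 6 of 80 cases, with medians of -0.07, 0.00 and -0.10. They were induced in 0, 20 and 2 cases, against 11.2%, 25.9% and 19.9% of all genes. The 20 in RCC4 cells were 25% of the list, near the share of all genes. With the replicate block the counts repressed in HKC-8 cells were 10 enzymes of the TCA cycle, 3 genes of coenzyme Q synthesis, 7 genes for the expression of mitochondrial DNA, 61 proteins of the mitochondrial ribosome and 11 of the cytosolic one.

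**Figure D5:**
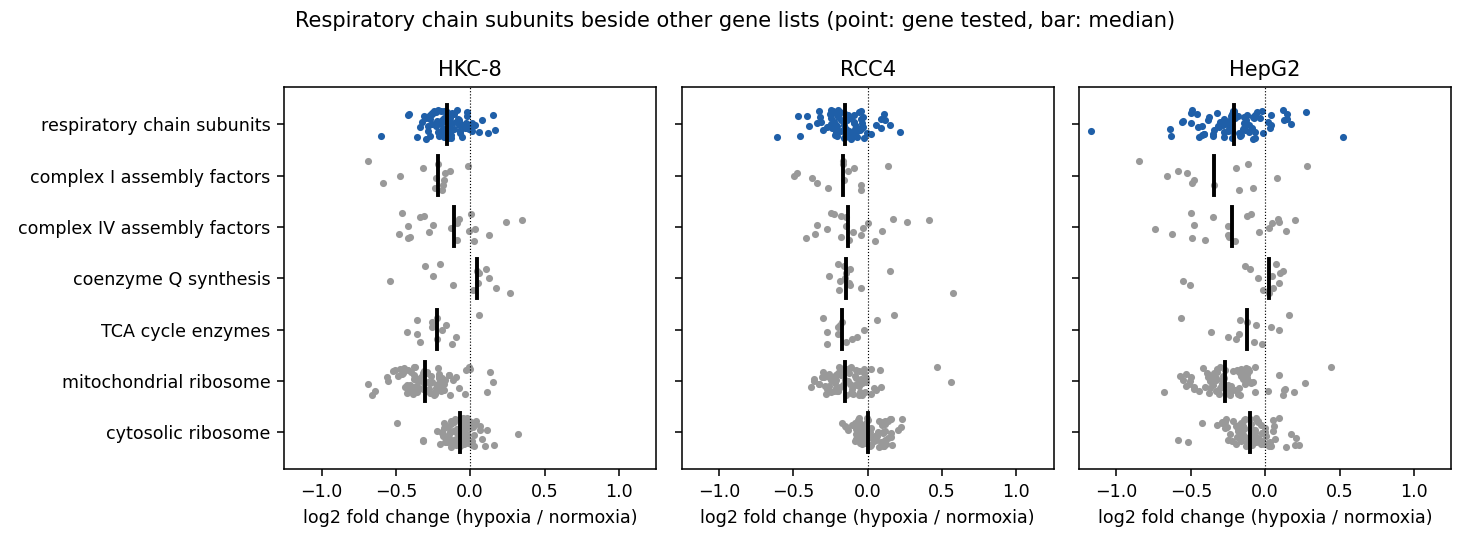
Log2 fold change of hypoxia against normoxia (x axis) of each gene tested in several gene lists (y axis), by cell line (panel), with respiratory chain subunits in blue, the other lists in grey and bars at the medians. The subunits, the mitochondrial ribosome and the TCA cycle have medians of -0.15 or below, -0.15 or below and -0.12 or below, and the cytosolic ribosome has medians from -0.10 to 0.00.

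Short transcripts as a whole had lower values in hypoxia. Of all genes tested with a length, those in the shortest of 3 equal classes had median log2 fold changes of -0.05, -0.09 and -0.07 in HKC-8, RCC4 and HepG2 cells, and 10.8%, 34.6% and 25.2% of them were repressed. The class held 62 of the 77 members in each line, of which 7, 39 and 31 were repressed, with medians of -0.15, -0.16 and -0.22. After correction for transcript length the medians of all members were -0.10, -0.08 and -0.12. The part of length in the members' decreases was not tested beyond this correction.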

How the data were processed

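PolyA-selected RNA was sequenced in 18 samples of 3 lines. The authors trimmed adapters (Trim Galore 0.3.3 in the submitters' processing notes), aligned the reads to GRCh37 (TopHat2 2.0.8b, Bowtie 1.0.0), removed fragments without a unique position (SAMtools 0.1.19 is also listed) and counted UCSC genes with HTSeq 0.5.4p3, set to intersection-strict. Raw read counts per gene were deposited, and genes with near-identical copies are undercounted. Everything later was computed here in R 4.3.3.

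Each line was fitted apart with edgeR 4.0.16 (filterByExpr by group, TMM scaling, glmQLFit and glmQLFTest), with Benjamini-Hochberg adjustment over all genes tested and a threshold of 0.05. Adjusted p-values are from edgeR unless DESeq2 1.42.0 is named. SEs are the size of the log2 fold change over the square root of F. Normoxic levels came from 1 fit of 9 samples. The scripts were tested on simulated data. The members, the lists and the tests were chosen with earlier results of these data known. Members are named by rule where they had the 5 largest rises or falls called in a line, the largest change of a complex in a line, calls in 1 direction in all lines or in opposite ones, a called interaction, one of the 3 largest normoxic differences either way, or the highest or lowest level per length of a complex. The complex II, ATP5G and COX7A genes, the tissue isoforms and the copies are always named. Of other lists at most the 2 largest called rises and falls are named.

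HKC-8 samples with the same replicate number, taken from the labels, deviated together (r from 0.11 to 0.45 over genes, against -0.47 to 0.12 for other pairs). The first normoxic sample was as like the second hypoxic one as the first. For HKC-8 cells the block is therefore given beside the named members and the counts of repressed genes that it changes. In HepG2 cells every same-numbered pair was also more alike than any other pair, though weakly (0.06 to 0.18, against -0.16 to 0.02). HepG2 counts with the block are given for the members as a whole in the last section. In RCC4 cells the ranges overlapped (-0.01 to 0.03, against -0.04 to 0.02). Alternatives were median-of-ratios size factors, DESeq2, no filter or at least 10 counts in every sample, correction for transcript length, 1 fit of all 18 samples, the replicate block and leaving out each sample. Corrections for GC content and for length with the block, and leaving out copies, were added after seeing the data. Gene positions are from GENCODE on GRCh37 and promoters from RefSeq on GRCh38.p14, matched by symbol, and no coordinate was converted. No SDHC promoter was used here. One member is counted in the totals but not reported on its own here.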

Additional observations from a re-analysis of the deposited data

Results flagged for a closer look

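NDUFA8 and UQCRC1 were singled out because every hypoxic sample lay on one side of every normoxic one in RCC4 cells and on the other side in HepG2 cells. Every hypoxic sample lay below in RCC4 cells for 27.6% of all genes, and above in HepG2 cells for 24.8%. How many of all genes met both conditions was not counted. NDUFA8 had a log2 fold change of -0.25 in RCC4 cells and 0.18 in HepG2 cells, where each of the 6 fits without 1 sample lost the call. UQCRC1 had -0.0561 in RCC4 cells, where it was not called, and 0.28 in HepG2 cells. The difference between these lines was not tested, and line and exposure cannot be told apart, since the labels give RCC4 cells another oxygen level and time.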

How the results depend on the processing

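The alternatives were run for the counts, the medians and 54 values of named members, none of which changed direction, and not for every value printed. Over the changed settings 299 fits of named members also kept their side of the threshold, 11 became called and 12 lost the call. Over the fits without 1 sample 276 kept it, 7 became called and 41 lost the call. One fit of all 18 samples, in which the lines share 1 estimate of the spread, gave 1 induced and 23 repressed members in HKC-8 cells and 0 and 17 in RCC4 cells, where the calls of SDHA (0.34), NDUFA5 (0.23), NDUFB8 (0.39), NDUFS7 (0.30), SDHC (0.076), ATP5G2 (0.098) and ATP5G3 (0.079) were lost. With the replicate block 2 members were induced and 35 repressed in HKC-8 cells, 3 and 50 in RCC4 cells and 4 and 40 in HepG2 cells, where SDHA was then induced (0.045). In the interaction DESeq2 gave 2 members higher and 1 lower in HKC-8 cells, and the replicate block 2 and 3. The median of RCC4 members was -0.0843 after length correction, and -0.0841 with the block as well. Leaving out 1 sample gave 3 to 25 repressed members in HKC-8 cells with medians of -0.26 to -0.11, 20 to 54 repressed in HepG2 cells, 1 to 3 induced in RCC4 cells, and 0 to 1 higher and 0 to 4 lower in the interaction. In HepG2 cells the call of NDUFA8 was lost without a filter (0.057) and in the fit of 18 samples (0.081). The causes were not tested. Among the alternatives, the share of all genes was counted only for the replicate block in HKC-8 cells and in the interaction. Adjusted p-values in parentheses are from edgeR. A member that was not called is not shown to be unchanged.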
